A study of Mus musculus with 7 samples.

Results

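Genes of the adipocyte were followed through the regrowth of mouse plantaris muscle, from the end of hind limb suspension (d0) to 14 days of renewed loading. The rule named 9 genes and took, for each, the array row that carries that gene's symbol alone. A row was found for 8 of them, namely Adipoq, Retn, Lep, Cidec, Plin1, Lipe, Fabp4 and Pparg, out of 19938 genes in all, and each had 1 row. Cfd (adipsin) had no such row and was not analysed here. The animals were male C57BL/6J mice aged 5 months with no genetic change stated, and all of them had been suspended for 2 weeks, the control included. The 7 groups are d0, taken at the end of suspension, and 1, 3, 5, 7, 10 and 14 days afterwards. Each group is 1 Affymetrix Mouse Gene 1.0 ST array of RNA pooled from the left plantaris of 6 mice. There are therefore no replicates, no muscle that was never suspended, and no error on any ratio between arrays.

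Adipocytes store triglyceride in a large droplet coated with perilipin and release it through a chain of lipases. They also secrete hormones, of which adiponectin and leptin act on muscle and on the brain. The nuclear receptor PPARγ, with members of the C/EBP family, drives their differentiation. In skeletal muscle adipocytes lie between fibre bundles and around the muscle, and they arise from fibro-adipogenic progenitors.

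The promoters of 4 members are shown first, because these 4 were lowest at d0 and highest at d14. Each line gives the 250 bases before an annotated start, from RefSeq on GRCm38.p6, with matches to the C/EBP pattern TTNNGNAA on either strand in capitals. Adipoq lies at chr16:23146286-23146535 on the plus strand and Lep at chr6:29059971-29060220 on the plus strand. Plin1 lies at chr7:79732777-79733026 on the minus strand. Cidec has 2 starts on the minus strand, with windows at chr6:113435761-113436010 and chr6:113434765-113435014.
Adipoq: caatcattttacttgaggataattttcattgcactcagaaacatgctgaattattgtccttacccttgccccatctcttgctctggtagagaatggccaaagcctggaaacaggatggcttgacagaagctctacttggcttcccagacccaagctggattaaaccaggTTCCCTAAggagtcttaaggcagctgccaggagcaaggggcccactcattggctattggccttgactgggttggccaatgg
Lep: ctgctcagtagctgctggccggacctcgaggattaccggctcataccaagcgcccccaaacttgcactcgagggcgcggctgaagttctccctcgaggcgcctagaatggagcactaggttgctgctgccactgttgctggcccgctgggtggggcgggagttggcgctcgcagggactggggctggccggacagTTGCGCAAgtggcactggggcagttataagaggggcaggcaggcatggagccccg
Plin1: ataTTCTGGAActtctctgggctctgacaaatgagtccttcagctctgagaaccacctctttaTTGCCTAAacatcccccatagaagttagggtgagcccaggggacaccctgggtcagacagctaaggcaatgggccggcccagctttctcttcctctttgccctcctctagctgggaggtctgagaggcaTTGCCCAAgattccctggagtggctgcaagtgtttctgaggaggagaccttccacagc
Cidec, upstream start: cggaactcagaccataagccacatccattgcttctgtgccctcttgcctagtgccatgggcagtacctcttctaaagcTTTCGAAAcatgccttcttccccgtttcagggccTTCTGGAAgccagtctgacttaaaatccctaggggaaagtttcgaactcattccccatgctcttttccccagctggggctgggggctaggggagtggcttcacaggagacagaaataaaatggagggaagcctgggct
Cidec, downstream start: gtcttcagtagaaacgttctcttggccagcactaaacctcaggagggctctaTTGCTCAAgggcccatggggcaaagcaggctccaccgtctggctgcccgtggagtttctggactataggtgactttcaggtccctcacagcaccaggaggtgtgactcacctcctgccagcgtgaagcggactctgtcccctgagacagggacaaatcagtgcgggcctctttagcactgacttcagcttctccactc

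The C/EBP pattern was matched in 6 of the 11 windows of the 7 members with a RefSeq promoter, and in 36.8% of all 32851 promoter windows of that length. The 6 windows belonged to Adipoq, Lep, Plin1, both starts of Cidec, and 1 of the 3 starts of Pparg. In Lep the match was TTGCGCAA, 55 to 48 bases before the start, which reads alike on both strands, as does TTTCGAAA at the upstream start of Cidec. The Retn and Lipe windows held no match. The nuclear receptor hexamer AGGTCA was found in 2 windows, both of Pparg, against 14.0% of all windows, and its direct repeat with 1 base between, the classical PPAR element, in 0 of 11 against 0.0335%. TATAAA was in 1 window, of Pparg, against 12.4%. These letters describe the windows and show no binding.

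The tissue was muscle by its defining markers. Creatine kinase (Ckm) lay between 17752 and 19664 intensity units on the 7 arrays, skeletal actin (Acta1) between 19394 and 21180, and the fast regulatory light chain Mylpf between 8071 and 9470. The adipocyte genes were also measurable: 7 of the 8 reached the median of all rows (128.1 to 131.8 units) on at least 1 array, the filter that 12102 genes passed. Lep did not, on any array. Of 24 other adipocyte-enriched genes, 23 had a row and 17 passed the filter. Among those below it were Cidea, Adig, Acvr1c and, of the brown fat list, the uncoupling protein Ucp1 (38.6 to 61.3 units). In a bulk sample, fewer adipocytes and less RNA per adipocyte cannot be told apart. The arrays also differed over genes in general. Of all pairs, d1 and d0 had the most kept genes at least 2-fold apart, 124. The widest spread over genes was between d1 and d7, with a robust SD of 0.190. From 61.1% (d5) to 72.2% (d10) of the kept genes lay above d0, so a low value at d0 was common, and what belongs to the array and what belongs to suspension cannot be told apart. The d10 array held a high signal of neutrophil and marrow genes, given further on.

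Most members were lower at d0 than at any later time. The d0 array was below all 6 later arrays for 6 of the 8 members (Adipoq, Retn, Lep, Cidec, Plin1 and Fabp4). This was so for 31.7% of all 19938 genes and for 39.0% of the 12102 kept genes. The d14 array was the highest for 5 of 8 (Adipoq, Lep, Cidec, Plin1 and Lipe), against 9.50% of all genes and 9.93% of kept ones. Both held for Adipoq, Lep, Cidec and Plin1, that is 4 of 8 members, against 2.63% of all genes and 2.93% of kept ones. With array medians made equal, Cidec was highest at d10 and no longer at d14, leaving 4 of 8 highest at d14 and 3 of 8 with both. Quantile normalization left these 3 counts at 6, 5 and 4. Between later arrays alone, the median member was higher at d14 by 0.17 than at d1, with 5 of 8 members higher at d14 and Retn, Pparg and Fabp4 lower. It was higher by 0.26 than at d3, by 0.25 than at d5 and by 0.24 than at d7, but by only 0.08 than at d10.

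The sizes were modest. None of the 8 was 2-fold from d0 on any day. Among the kept genes, in the order of the 6 later days, 0.653%, 0.413%, 0.182%, 0.190%, 0.438% and 0.0661% were at least 2-fold higher than at d0, and 0.372%, 0.281%, 0.314%, 0.289%, 0.355% and 0.322% at least 2-fold lower. At a threshold of 1.5-fold, Retn was higher at d1 (3.45% of kept genes were), again at d5 (1.36%), and together with Adipoq at d14 (0.678%). The median log2 ratio of the 8 members to d0 was 0.24 at d1, 0.17 on both d3 and d5, 0.15 at d7, then 0.27 at d10 and 0.43 at d14. The median kept gene stood at 0.10, 0.07, 0.05, 0.08, 0.10 and 0.08 on those days. The members' median was thus above that of all kept genes on each of the 6 days, and the gap was widest at d14. Of the 48 ratios of a member to d0, 43 were positive, while from 61.1% (d5) to 72.2% (d10) of kept genes lay above d0. All 48 share the d0 array, so they are not separate observations. The 5 negative ones were 4 of Lipe and 1 of Pparg. As a yardstick, the robust SD over kept genes of the log2 difference between 2 arrays ranged from 0.0896 to 0.190 over the 21 pairs, and was 0.126 between d14 and d0.

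**Figure D1:**
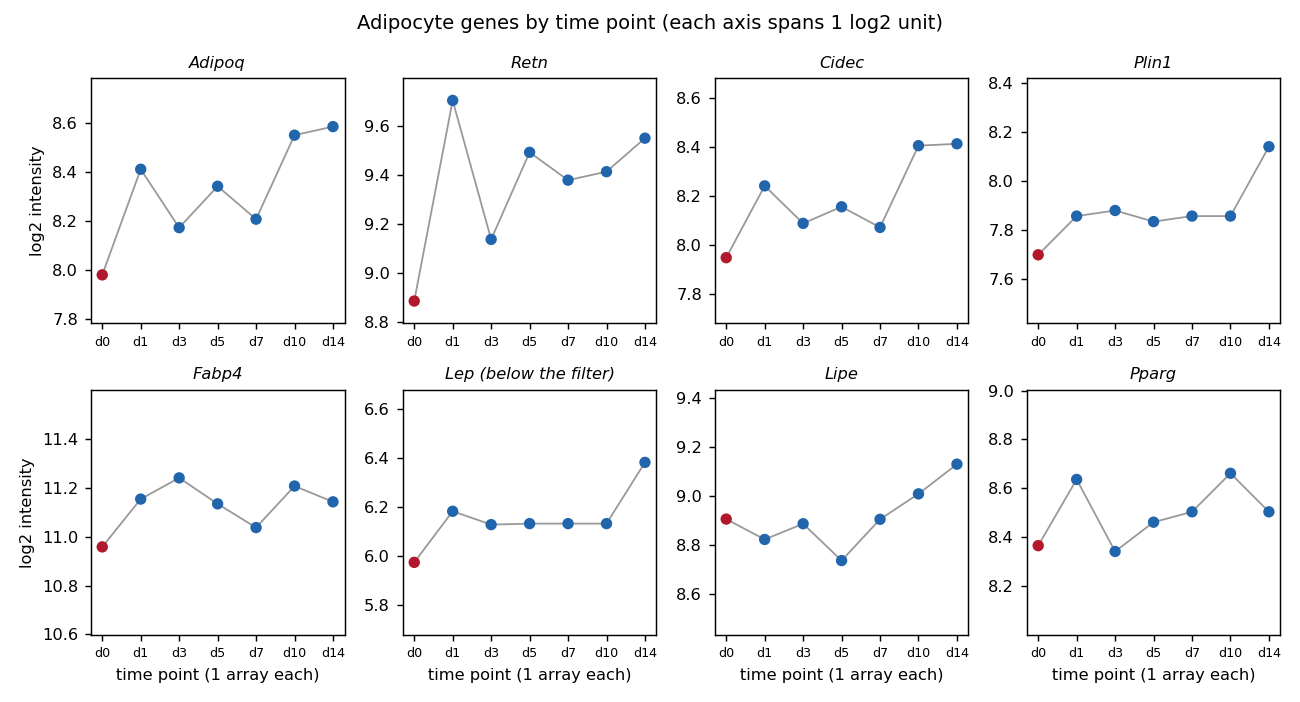
Log2 intensity of the 8 adipocyte genes at the 7 time points, 1 array of pooled RNA each (red, d0; blue, later days; each vertical axis spans 1 log2 unit). Adipoq and Cidec trace similar courses, Plin1 and Lep are nearly flat between d1 and d10 and step up at d14, and Lipe is lowest at d5.

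Among the secreted factors, Adipoq encodes adiponectin, a hormone made almost only by adipocytes that raises fatty acid oxidation in muscle. Its intensity (row 10434747) was 252.2 (d0), 340.2 (d1), 288.3 (d3), 324.2 (d5), 295.3 (d7), 374.7 (d10) and 383.9 (d14). The d0 value was the lowest, d10 and d14 were the highest, and d3 and d7 lay between them and d0. At d14 Adipoq was 1.52-fold above d0 (log2 0.61), and at d10 1.49-fold (0.57). The d10 and d14 arrays differed by 0.03 for this gene, less than the robust SD of that pair (0.100), while d14 stood 0.38 above d7, with a robust SD of 0.105 for that pair. The level was not monotonic, since it went from 0.43 at d1 to 0.19 at d3.

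Retn encodes resistin, a cysteine-rich hormone of mouse adipocytes, and had the widest range of the 8. Its intensity (row 10569870) was 473.2 (d0), 835.4 (d1), 563.5 (d3), 721.2 (d5), 666.5 (d7), 682.7 (d10) and 750.7 (d14). The d1 array was the highest and d0 the lowest, 1.77-fold apart (log2 0.82). From d1 to d3 it was lower by 0.57, which left d3 only 0.25 above d0. From d5 on it lay between 0.49 and 0.67 above d0. Its relatives, named here after their values were seen, did not share this course. Retnlg, a resistin-like gene of granulocytes, was at 92.5 at d0, between 106.8 and 145.5 on the other arrays except d10, and at 486.1 at d10, when Retn was in the middle of its range. Retnla, the resistin-like gene of alternatively activated macrophages, lay between 460.2 and 638.7.

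Lep encodes leptin, the satiety hormone whose output follows fat mass. It was dim, at 62.9 units at d0, 72.7 at d1, 70.0 at d3, 70.2 at each of d5, d7 and d10, and 83.5 at d14 (row 10536789). These values were below the median of all rows on every array, so the log2 ratio of 0.41 at d14 is that of a signal near the low end of the array. The identical values on 3 arrays come from the deposited table, where 26.7% of kept genes carry the same value, to 1 decimal, on 3 or more arrays. Between such arrays the table gives no difference for the gene.

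The droplet proteins came next. Cidec, also known as Fsp27, enlarges lipid droplets by passing lipid from smaller to larger ones. Its intensity (row 10546929) was 246.8 (d0), 302.5 (d1), 272.0 (d3), 285.1 (d5), 268.9 (d7), 339.0 (d10) and 340.8 (d14). It was lowest at d0 and highest at d10 and d14, 1.38-fold above d0 at d14 (log2 0.47). The order of its 7 arrays was that of Adipoq apart from an exchange of d3 and d7, and Pearson's r between the log2 values of these genes was 0.98 over the 7 arrays and 0.98 without d0, given as a description of arrays that also share handling and normalization.

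Plin1, perilipin 1, coats the droplet of adipocytes and gates the access of lipases. Its intensity (row 10564795) was 207.8 (d0), 231.9 (d1), 235.6 (d3), 228.3 (d5), 231.9 (d7), 231.9 (d10) and 282.3 (d14). Between d1 and d10 it hardly moved, with 3 identical values. At d14 it was 1.36-fold above d0 (log2 0.44) and 0.28 above d10, against a robust SD of 0.100 between those arrays. In the deposited values Plin1 and Lep stepped up at d14, whereas Adipoq and Cidec were already high at d10. The flat stretch of Plin1 and Lep before d14 rests partly on identical values, and Lep was below the filter. The contrast in course is limited to that extent.

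Lipe, the hormone-sensitive lipase of adipocytes and also of muscle fibres, had 4 of the 5 negative ratios. Its intensity (row 10561031) was 479.4 (d0), 452.5 (d1), 473.1 (d3), 426.2 (d5), 479.1 (d7), 514.9 (d10) and 560.1 (d14). It was lowest at d5, at -0.17 against d0, and higher than d0 only at d10 (0.10) and d14 (0.22). The sign at d7 (0.00) turned with quantile normalization, where d7 lay 0.0045 above d0. From d5 to d14 the level was higher by 0.39, with a robust SD of 0.0896 between these arrays.

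Fabp4, the fatty acid binding protein of adipocytes, is also made by capillary endothelium and by macrophages. Its intensity (row 10497265) was 1989.2 (d0), 2277.8 (d1), 2418.8 (d3), 2247.2 (d5), 2101.1 (d7), 2363.5 (d10) and 2260.0 (d14). The d0 array was again the lowest, but the highest was d3 (log2 0.28), and d14 stood at 0.18. Its range was the narrowest of the 8. Of its relatives, Fabp3, the form of heart and oxidative muscle, lay at 0.19 at d1 and 0.85 at d5, and Fabp5 between 0.44 and 0.64 above d0. The 6 others of 8 listed family genes did not pass the filter.

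Pparg encodes PPARγ, which switches on the genes of lipid storage, Fabp4 and Adipoq among them. Its intensity (row 10540897) was 329.9 (d0), 398.0 (d1), 324.5 (d3), 352.6 (d5), 363.1 (d7), 405.0 (d10) and 363.1 (d14). The d3 and d0 arrays were the lowest and differed by 0.02, and d10 and d1 were the highest, at 0.30 and 0.27 above d0. Unlike Plin1 and Lep it was no higher at d14 than at d7.

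**Figure D2:**
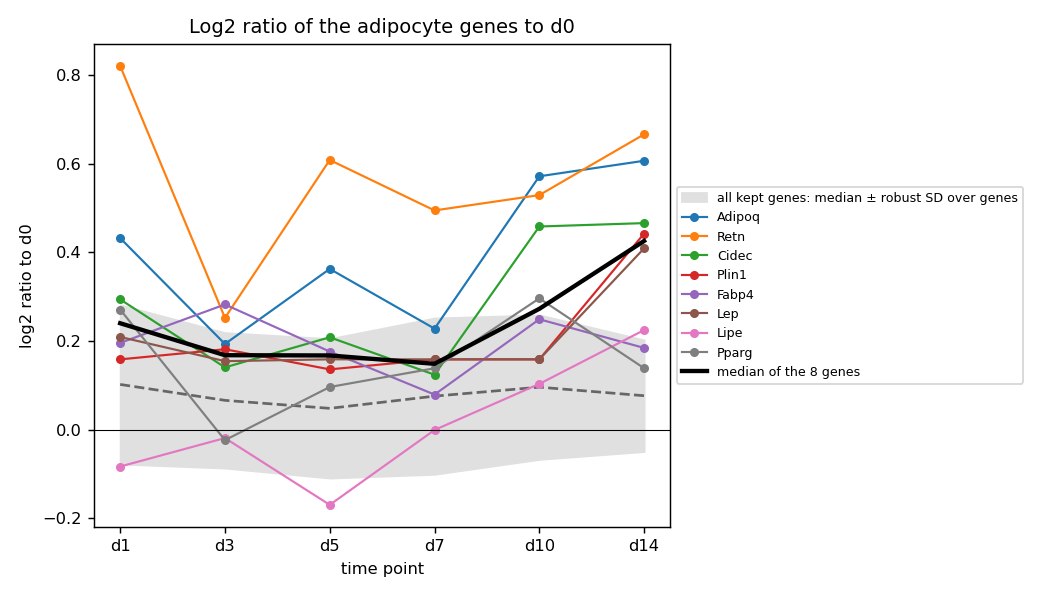
Log2 ratio of each of the 8 adipocyte genes to the d0 array on the 6 later days (coloured lines), with their median (black) and, for the 12102 kept genes, the median (dashed) and 1 robust SD over genes (grey band). The members' median runs from 0.15 at d7 to 0.43 at d14, Retn peaks at d1 (0.82), and Lipe is not above 0 before d10.

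A slope on log2(day + 1) was tested with limma in a fit of all 12102 kept genes. None of the 7 members in that fit passed a Benjamini-Hochberg adjusted p of 0.05, and 0.00% of all genes rose and 0.00% fell. All 7 slopes were positive, and the share of all genes with a positive slope is not given here. At an unadjusted limma p of 0.05, 3 of the 7 had a positive slope, against 9.19% of all genes (1.45% had a negative one). They were Adipoq with 0.12 ± 0.040 (SE) per doubling of day + 1 (limma adjusted p = 0.404), Cidec with 0.09 ± 0.035 (limma adjusted p = 0.427) and Plin1 with 0.07 ± 0.027 (limma adjusted p = 0.427). This count rested on single arrays. It was 0 without d0, 0 without d14, 1 without d10 (Plin1) and 4 without d1, where Retn joined the others. The number of all genes with a positive slope at that unadjusted limma p moved too. Of the 12102 it was 1112 in the full fit, 833 without d0, 1125 without d14, 971 without d10 and 1964 without d1. Lep, in a fit with no filter, had a slope of 0.06 ± 0.027 (limma adjusted p = 0.455). In the fit without d0, 19 genes rose and 24 fell at a limma adjusted p of 0.05, none of them a member. With array medians made equal, 1 gene rose, and again it was no member. Without d0 the slopes of Retn and Fabp4 turned to -0.03 and -0.01, and the lowest limma adjusted p among the members was 0.393, for Lipe (0.10 ± 0.041). The slopes of Adipoq, Cidec and Plin1 were then 0.08, 0.07 and 0.06.

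Other adipocyte-enriched genes were followed as a list. Of the 17 past the filter, 14 were higher at d14 than at d0, against 71.3% of kept genes, with a median of 0.23 against 0.08 for all kept genes, and none was 2-fold from d0. On the earlier days the median lay between 0.02 and 0.14. Here 6 of 17 were highest at d14, against 9.93% of kept genes, and 7 of 17 lowest at d0, which is near the 39.0% of kept genes. The amine oxidase Aoc3, abundant on adipocytes and vascular smooth muscle, stood at 0.52 at d14 and between 0.35 and 0.47 on the earlier days. Lgals12, a galectin of lipid droplets, stood at 0.44, the gluconeogenic and glyceroneogenic enzyme Pck1 at 0.31 and the amino acid transporter Slc7a10 at 0.30. The list had 4 genes with a positive slope at an unadjusted limma p of 0.05, against 9.19% of kept genes, and 0 after adjustment.

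For genes of lipid handling that muscle fibres express as well, the d14 median was 0.09 over 17 genes of lipid storage and triglyceride synthesis, 0.12 over 8 of lipolysis and 0.07 over 12 of fatty acid synthesis, close to the 0.08 of all kept genes. The lipolysis list was higher on other days, with a median of 0.19 at d7 and 0.26 at d10, where the members' medians were 0.15 and 0.27. Single genes lay farther out. Dgat2, which makes the last step of triglyceride synthesis, went from -0.09 at d1 to 0.53 at d14, lipoprotein lipase (Lpl) from 0.00 to 0.37, and its capillary anchor Gpihbp1 from 0.14 to 0.26. Gpd1, which makes glycerol 3-phosphate, was at -0.75 at d1 and -0.30 at d14. In the lipolysis list G0s2, an inhibitor of the triglyceride lipase Pnpla2, stood at 0.35 at d14, the natriuretic peptide clearance receptor Npr3 at 0.29, Mgll, the monoglyceride lipase, at 0.21 and Pnpla2 itself at 0.13. Of fatty acid synthesis, the carbohydrate-sensing factor Mlxipl stood at 0.42, Scd2 at 0.29, Acacb at 0.21 and Fads1 at 0.13. The limma trend passed adjustment for 0 genes of these lists.

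Of 21 adipogenic transcription factors past the filter, 15 were higher at d14, a share near the 71.3% of all kept genes, with a median of 0.14. Cebpa, the partner of PPARγ, lay between 0.31 and 0.41 above d0 on all 6 days, Ppara between 0.47 and 0.55, and the coactivator Ppargc1b between 0.34 and 0.52. Cebpd, an early adipogenic factor that glucocorticoids also induce, lay between -0.71 and -0.52. Each of these genes lay on the same side of d0 on all 6 days. Among the later days Cebpa and Ppara moved less than Cebpd, at -0.71 at d10 and -0.52 at d14, and Ppargc1b, at 0.34 at d5 and 0.52 at d10. The receptors that would read the secreted members, chosen by role after their values were seen, differed among themselves. Of those for adiponectin, Adipor1 lay between -0.19 and -0.08, Adipor2 between -0.14 and 0.14, Cdh13, a cadherin that binds adiponectin, between 0.10 and 0.38. The leptin receptor Lepr did not pass the filter. Of 2 proteins reported to bind resistin, Cap1 lay between 0.19 and 0.57 and Tlr4, also the endotoxin receptor of macrophages, between 0.24 and 1.23, both highest at d1. The 17 adipokine receptors and other secreted factors had a median of 0.29 at d1 and 0.10 at d14. Nampt, an enzyme of NAD synthesis also secreted by fat, stood at 0.74 at d1 and 0.34 at d14, the apelin receptor Aplnr at 0.90 at d3 and 0.57 at d14, and the matrix protein Ccdc80 and the retinol carrier Rbp4 at 0.32 and 0.31 at d14.

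Brown and beige adipocyte markers had a d14 median of 0.16 over 8 genes. They were led by Cox7a1 (0.40), a respiratory subunit that muscle also makes, the deiodinase Dio2 (0.22), Cited1 (0.21) and Cox8b (0.20). Cox8b read 10035 to 11650 units on the arrays. The listed genes below the filter stood at -0.48 (Ucp1), -0.07 (Lhx8), -0.01 (Elovl3), 0.00 (Tmem26) and 0.07 (Cpn2) at d14. Ucp1 was lower than d0 on every later day. The alternative complement pathway, in which adipsin acts, had a d14 median of -0.11 over 7 genes, with C3ar1 at -0.36, the properdin gene Cfp at -0.19, Cfb at 0.17 and Cd55 at -0.14.

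**Figure D3:**
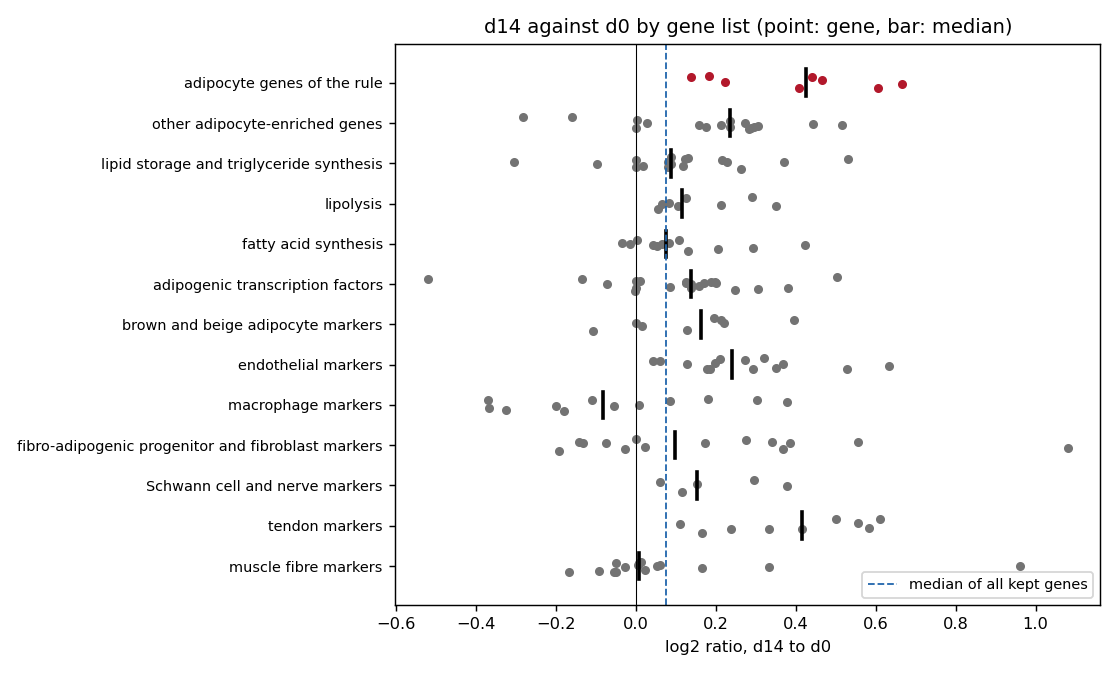
Log2 ratio of d14 to d0 for each gene (points) of 13 gene lists, with the list's median (bars) and the median of all kept genes (dashed line); the 8 adipocyte genes, Lep included, are in red and other lists show genes past the filter. The medians are 0.43 for the adipocyte genes and 0.42 for tendon markers, 0.24 for endothelial markers and -0.08 for macrophage markers.

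Markers of other cells that lie beside adipocytes were set next to these values. All 14 endothelial markers passed the filter and 12 of 14 were lowest at d0, against 39.0% of kept genes. Their summed intensity was 8241 at d0 and 9470 to 10303 afterwards, and their median log2 ratio lay between 0.18 and 0.34 on the 6 days. At d14 the vascular receptor Kdr stood at 0.63, Ramp2 at 0.53, Cdh5 at 0.37 and Pecam1 at 0.35. Fabp4 and Pparg, which endothelium also makes, lay between -0.02 and 0.30, and the part of the endothelial markers in this was not tested.

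Macrophage markers, 12 of 14 past the filter, had a course unlike that of the members, with a median of 0.42 at d1, 0.37 at d3 and -0.08 at d14. Their summed intensity was 4799 at d0, 7170 at d1 and 4326 at d14. Cd68, a lysosomal glycoprotein, went from 2.04 at d1 to -0.37 at d14, Lyz2 from 0.31 to -0.37, Lgals3 from 0.65 to -0.32, and Itgam lay at 0.38 at d14. The summed signal was lowest at d14, where Adipoq, Lep, Cidec, Plin1 and Lipe were highest. It was highest at d1, where Retn was highest, while Fabp4 was highest at d3 and Pparg at d10. The part of macrophages in the members' values was not tested.

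Markers of fibro-adipogenic progenitors and fibroblasts, the cells from which muscle adipocytes arise, had a median of 0.10 at d14 over 14 genes, and their summed intensity stayed between 20884 and 22440. Of these 14, 9 were higher at d14 than at d0, against 71.3% of kept genes. Col1a1 stood at 1.08, the only gene 2-fold from d0 at d14 in the lists used here. Col3a1 stood at 0.56, Lum at 0.39 and Smoc2 at 0.37 at d14. Pdgfra was lower than d0 on every later day (-0.31 to -0.08), and at d14 Dcn stood at -0.19 and Gsn at -0.13. Tendon markers, however, had a d14 median of 0.42 over 9 genes and 0.59 at d10, with Tnmd at 0.61, Ptx4 at 0.58, Kera at 0.56 and Thbs4 at 0.50 at d14. The 5 Schwann cell markers past the filter were all highest at d14, against 9.93% of kept genes. S100b stood at 0.38, the myelin gene Mbp at 0.30, Pmp22 at 0.15 and Cldn19 at 0.12. For S100b (143.9 units at d14, 143.5 at d1) and Sox10 (154.2 and 153.9) the lead over d1 was slight. Below the filter, Mag stood at -0.12 and Ncmap at 0.00 at d14. The summed intensity of all 7 Schwann cell markers with a row was 5496 at d14 and between 4541 and 5268 on the other arrays. The only skin marker of 10 past the filter was Krt10 (0.28). Muscle fibre markers had a median of 0.01 at d14, with Myh2 at 0.96 and Myh7 at 0.33, Mb at 0.17 and Actn3 at -0.17. The part of connective tissue, nerve or fat taken with the muscle in the members' values was not tested.

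The d10 array held a high signal of neutrophil and marrow markers, with a summed intensity of 9797 against 1846 at d0 and 2172 to 4633 on the other arrays. Ngp stood at 3.46, S100a8 at 3.16, Mpo at 2.24 and Mmp8 at 1.69. Of bone genes past the filter, Ibsp stood at 2.80, Acp5 at 1.12, Ctsk at 0.83 and Alpl at 0.61. The listed bone genes below it stood at 0.16 (Sp7), -0.09 (Dmp1) and 0.16 (Phex) at d10. Ibsp and Mmp8 passed the filter through d10 alone, at 314.1 and 204.0 units. On the other arrays Ibsp read 45.1 to 76.0 and Mmp8 45.1 to 73.7. At d14 the marrow markers had a median of 0.17. The part of the d10 signal in the values of Adipoq and Cidec at d10 was not tested.

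Genes with the most similar course were then sought among 1875 kept genes with a range of at least 0.5 log2, by Pearson's r with the mean centred log2 value of the 8 members over the 7 arrays. These correlations are descriptions of arrays that share normalization, with no test. The 8 most similar were Fthl17f (r = 0.98), Nr2c2ap (0.95), Cyp2e1 (0.95), Lipo3 (0.95), Mrpl22 (0.92), Aoc3 (0.91), Mfap3l (0.91) and Slc25a32 (0.89). Without d0 their r lay between 0.78 and 0.96 over 6 arrays. The mean they were chosen by was lowest at d0, so a low d0 value in them follows from the choice. Fthl17f was dim, at 63.4 units at d0, 83.9 to 109.0 from d1 to d10 and 130.9 at d14. It passed the filter through d14 alone. Cyp2e1, a cytochrome P450 that oxidises ethanol and fatty acids, read 561.9 (d0), 1058.5 (d1), 766.3 (d3), 865.1 (d5), 916.8 (d7), 1126.2 (d10) and 1087.3 (d14). It was 2.00-fold above d0 at d10 (log2 1.00) and stood at 0.95 at d14. Lipo3, of a lipase family, lay at 0.55 at d1, 0.41 at d3, 0.74 at d10 and 0.73 at d14. Mrpl22 is a protein of the mitochondrial ribosome and Slc25a32 the mitochondrial folate carrier. Aoc3 was the only one of the 8 that the fixed list of other adipocyte genes held.

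**Figure D4:**
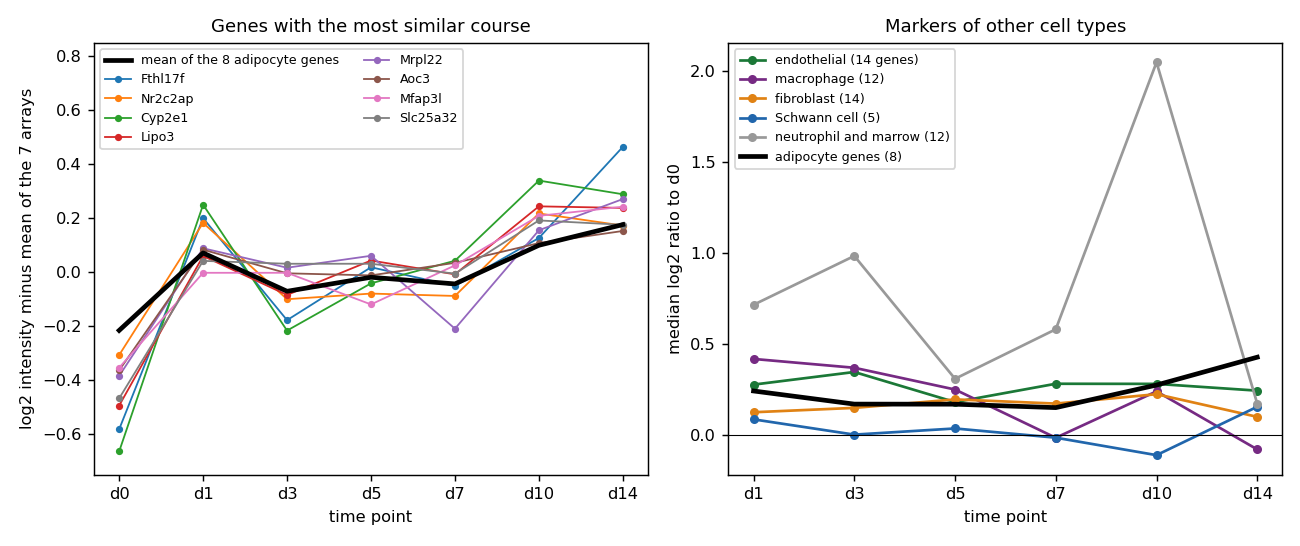
Left, log2 intensity minus its mean over the 7 arrays for the mean of the 8 adipocyte genes (black) and the 8 genes of most similar course; right, median log2 ratio to d0 of the adipocyte genes (black) and of marker lists of other cell types (number of genes past the filter in brackets, the adipocyte line with all 8). The similar genes, chosen by r with a mean that is lowest at d0, are lowest at d0 themselves. The marrow list peaks at d10 with a median of 2.05 and the macrophage list ends at -0.08.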

How the data were processed

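Gene expression was measured in 7 pools of left plantaris RNA, 1 array each. The deposited table holds linear intensities, which the authors had normalized between arrays. The submitters' processing notes name Partek. How background was corrected and arrays normalized, and on which build, is not given in the sources used here. For RNA input, the labels' protocol gives 250 ng of RNA and the design text 100 ng. Of 35556 rows, 21789 had 1 symbol in the platform annotation, 1621 had several, and the other 12146 had none. Where 999 genes had more than 1 row, the row of highest mean log2 value was used. Log2 was taken without adding to the values (pseudocount 0), and genes that stayed below an array's median row on all 7 arrays were left out.

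Each day was set against d0 as the ratio of single arrays, untested. Slopes came from limma 3.58.1 under R 4.3.3 (lmFit; eBayes, trend = TRUE; two-sided), with Benjamini-Hochberg adjustment over all 12102 kept genes. Pools of different animals and departures from a line make up its error. Other steps used pandas 2.3.3 and numpy 2.4.6 in Python 3.11.15, and plots matplotlib 3.10.9. The robust SD is 1.4826 times the median absolute deviation. The fit was tested on simulated data, with 50 changed genes at each size. It recovered 21 of 50 at a total log2 change of 0.5, 45 at 1, and all 50 at 2 and at 3, with 7 false calls. The simulated noise was independent between genes, with no effect shared by an array and no repeated values. These rates therefore need not hold for the real arrays. The log2 ranges of the members over the arrays ran from 0.28 (Fabp4) to 0.82 (Retn). These ranges are the highest minus the lowest array, whereas the simulated size is the change along a line, so they are unlike measures. A member that did not pass the fit may still have changed along a line by 0.5, where 21 of 50 were recovered.

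Named were the 8 members with a row, up to 4 genes of each list with the largest ratio at d14, where the members' median was farthest from 0, 8 genes of most similar course, leaving out predicted genes, clones, receptors of smell, small RNAs and antigen receptor segments, and Ckm, Acta1 and Mylpf. The members and the lists were chosen with earlier results of these data known. No scanner files entered, so detection per gene is not given. Precision is limited by the 7 arrays. Alternatives were the filter, normalization, rows per gene, pseudocount, reference array, thresholds, scale of the day and time points left out.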

Additional observations from a re-analysis of the deposited data

How the results depend on the processing

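With no replicates, ratios carry no error. The members' medians kept their sign under each filter, normalization, row rule and pseudocount tried. They moved by less than the robust SD over genes except at d14 with the filter at percentile 75, which left 5 members and a median of 0.22. Against the d14 array the medians were -0.17 at d1, -0.26 at d3, -0.25 at d5, -0.24 at d7 and -0.078 at d10. Against the mean of the 6 other arrays they were above 0 at d1 (0.048), d10 (0.10) and d14 (0.26) and below 0 at d3 (-0.075), d5 (-0.031) and d7 (-0.022). At 1.5-fold in place of 2-fold the count of members was 1 at d1 (Retn), 1 at d5 (Retn) and 2 at d14 (Adipoq and Retn), as given above. The count of members with a trend was 3 at an unadjusted limma p of 0.05 and 0 in each other fit, the fits without 1 time point (0 to 0) included. With 1 time point left out the slope of Retn ran from -0.027 to 0.17 and that of Fabp4 from -0.012 to 0.043, each below 0 only without d0. The settings for counts of members lowest at d0 and highest at d14 were chosen after the data were seen. With 1 array other than the one counted left out these counts were 6 to 7 for d0 lowest, 5 to 6 for d14 highest and 4 to 5 for both, but by construction they could only stay or rise, so this shows nothing about stability. No paired analysis was possible because each group is 1 array and the labels give no replicate numbers.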
